A study of Mus musculus with 18 samples.

Results

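The cytosolic ribosomal protein genes were read in the ventricular RNA of wild-type rats and of mutant rats with altered titin splicing. Members were all genes whose probe set carried a single annotated symbol starting with Rpl or Rps and a digit, or the symbol Rpsa, Rplp0, Rplp1 or Rplp2, with the ribosomal S6 kinases left out. The rule found 50 genes among the 14217 genes with a probe set of their own. By the start of the symbol, 34 were counted to the large subunit and 16 to the small subunit. These counts include Rpl37-ps2 and Rps4x-ps1, whose symbols carry the suffix of pseudogenes. Where a gene had several such probe sets, the one with the highest mean over all 18 arrays stood for it. A further 36 probe sets listed a ribosomal protein gene together with other symbols and were not used, so the 50 genes are those with a symbol of their own and not the complete ribosome.

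The study compared 6 groups of 3 animals each, wild type and mutant at 1, 20 and 49 days after birth, with 1 array (Affymetrix Rat 230 2.0) per animal. The mutation arose in Sprague-Dawley rats, which were crossed with Fisher 344 inbreds, and the labels give this origin for both genotypes and name no treatment. The line is known for a defect in Rbm20, a splicing regulator of titin, while zygosity, sex and littermates of the animals are not given in the sources used here. The design text speaks of ventricular RNA from individual animals, the sample titles of whole heart. The organism field names mouse, whereas the strains, the descriptions and the array are those of rat. Since the genotype field reads N2BA:N2B throughout, each animal's genotype follows its description.

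The cytosolic ribosome joins a small subunit, which reads the messenger RNA, to a large subunit, which forms peptide bonds. Most ribosomal proteins are made in every cell in matched amounts, and cells that grow or divide need many new ribosomes. A few have paralogs made in selected tissues. RPL3L is the best known in the heart: it is made in striated muscle, where it can take the place of RPL3 near the peptidyl transferase centre.

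The genotype labels matched Rbm20, which was at 10.19 to 10.75 in the wild-type group means and 5.49 to 5.87 in those of the mutant (log2 levels, as all levels here). Array medians lay between 5.42 and 5.50. The difference between the 3′ and 5′ Gapdh control probe sets, a sign of RNA ends, was larger at day 1 (0.94 ± 0.12 in the wild type and 1.03 ± 0.37 in the mutant, SD, n = 3) than at day 49 (0.35 ± 0.02 and 0.43 ± 0.05). It was above 1 on 3 arrays, wild-type array 2 and mutant arrays 1 and 2 of day 1. Of the 19 measured cardiomyocyte markers, 0 had a group mean below 6, and the mean levels of Ryr2 and Mb were 12.17 and 13.27.

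Of the 50 genes, 38 had a mean level of at least 11 and 7 a mean below 6, near or under the array medians. The 7 dim ones were Rpl26l1, Rpl28, Rpl30, Rpl37-ps2, Rpl39l1, Rps13 and Rps4x-ps1. Rpl28, Rpl30 and Rps13 were also listed on probe sets that name several genes, from which no value was taken. Ribosomal protein genes have many processed pseudogenes, and how far probes read such copies was not tested, so single-gene values are uncertain in that respect.

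Rpl3l rose more than any other of the 50 genes as the heart matured, from a background-like level to a bright one. In the wild type its level was 4.07, 3.86 and 3.87 at day 1, 9.89, 10.06 and 10.10 at day 20, and 10.85, 11.04 and 10.74 at day 49. In the mutant it was 4.04, 4.26 and 3.83, then 9.32, 9.77 and 9.01, then 10.79, 10.60 and 10.18. All day 1 arrays lay far under all later arrays, and in each genotype the day 49 arrays lay above those of day 20.

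Between day 1 and day 20 Rpl3l rose by 6.08 ± 0.17 (SE) in wild-type hearts, a 67.7-fold difference, and by 5.32 ± 0.17 in mutant hearts (limma's moderated test, adjusted p = 5.91e-14 and 4.88e-13). The day 1 level was near background, where array values are compressed, so the fold is read with that limit. Between day 20 and day 49 it rose by 0.86 ± 0.17 in wild-type hearts and by 1.16 ± 0.17 in mutant hearts (limma adjusted p = 0.00388 and 0.000383). In bulk tissue, more cells of a type and more RNA per cell cannot be told apart, and the same holds for every fall given here. All 4 calls held under each alternative that included this probe set.

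**Figure D1:**
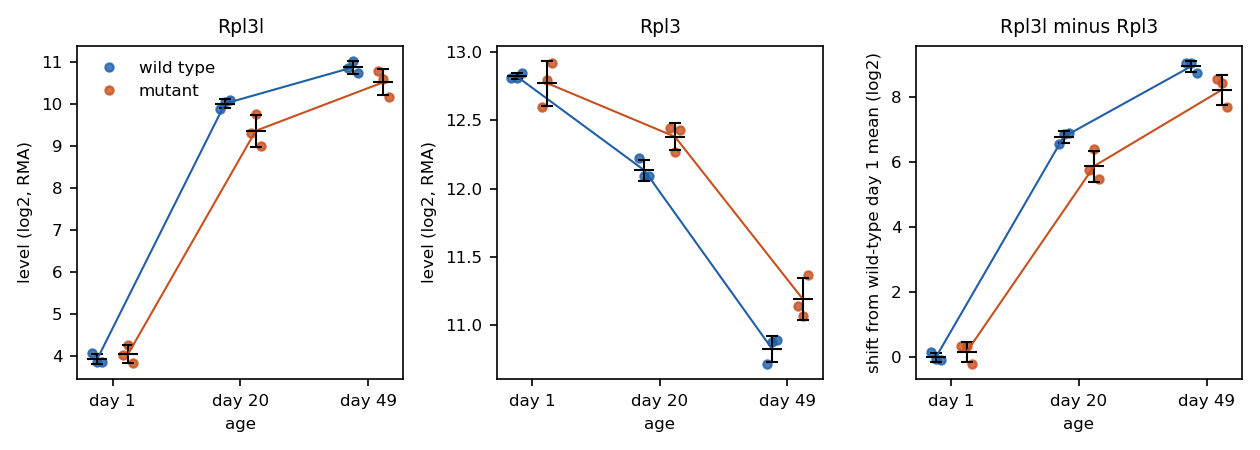
Level of Rpl3l (left) and Rpl3 (middle) on a log2 scale, and their difference shifted so that the wild-type day 1 mean is 0 (right; day 1 Rpl3l is near background, so later shifts may be understated), against age. Points are single arrays (3 per group), black bars are the mean ± SD, and lines join group means. Rpl3l climbs from about 4 to over 10 while Rpl3, read from its brighter probe set, falls to about 11. The mutant's difference at day 20 (5.88) and day 49 (8.22) lies under that of the wild type (6.77 and 8.94), a gap that rests in part on this Rpl3 probe set.

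Rpl3, which encodes the ubiquitous protein that RPL3L resembles, fell over the same ages. In the wild type it was at 12.81, 12.81 and 12.85 at day 1, at 12.22, 12.09 and 12.09 at day 20, and at 10.72, 10.87 and 10.89 at day 49. In the mutant it was at 12.60, 12.80 and 12.92, then 12.44, 12.27 and 12.43, then 11.14, 11.07 and 11.37. The 3 ages did not overlap within either genotype.

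In the wild type Rpl3 differed by -0.69 ± 0.10 (SE) between day 1 and day 20 and by -1.31 ± 0.10 between day 20 and day 49 (limma adjusted p = 4.08e-05 and 3.56e-07). In the mutant the differences were -0.39 ± 0.10 and -1.19 ± 0.10 (limma adjusted p = 0.0063 and 1.54e-06). The second interval held the largest fall of the 50 genes in both genotypes. A dimmer Rpl3 probe set (mean level 5.24) showed -0.60 and -0.92 in the wild type, the same direction. On the day 1 arrays, where Rpl3 was at 12.60 to 12.92, the Rpl3l probe set was at 3.83 to 4.26.

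The difference between the levels of Rpl3l and Rpl3 was followed as a shift from the wild-type day 1 mean, since levels of separate probe sets cannot be set against each other. It was 6.77 ± 0.19 (SD, n = 3) at day 20 and 8.94 ± 0.17 at day 49 in the wild type. In the mutant it was 0.16 ± 0.32 at day 1, 5.88 ± 0.48 at day 20 and 8.22 ± 0.46 at day 49. The highest mutant array at day 20 (6.40) lay under the lowest wild-type array (6.56), and at day 49 the values were 8.54 and 8.74. This gap rests in part on the Rpl3 probe set used. The dimmer Rpl3 probe set showed genotype differences of -0.01 and 0.03 at these ages, and Rpl3l itself overlapped between genotypes at day 49. Since Rpl3l was at 3.93 on average at day 1 in the wild type, under the array medians, the true shifts from that age may be larger than these values. The shift was not tested, since it combines 2 genes chosen with their values known.

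Most of the other ribosomal protein transcripts were lower at each later age. Between day 1 and day 20 of the wild type, 45 of 50 members were lower in sign, with a median of -0.23, while the median over all probe sets was 0.04. Called lower at an adjusted p below 0.05 were 18 members (36%), against 15.6% of all probe sets, and Rpl3l was the 1 called higher, against 12.6%. Between day 20 and day 49, 47 of 50 were lower, with a median of -0.32 against 0.02 over all probe sets. Called lower were 27 members (54%) against 6.05% of all probe sets, and again 1, Rpl3l, was called higher against 3.53%. Both intervals share the day 20 arrays, so their values are not independent.

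Brightness was taken into account by setting bright members beside other bright probe sets. Of the 38 members at a mean level of at least 11, 17 were called lower in the first interval and 27 in the second. Among the 504 probe sets of that brightness, these members included, 24% and 19% were called lower, with medians of 0.07 and -0.04. Without the probe sets that list a ribosomal protein gene, 433 remained. Of those, 18.5% and 10.9% were called lower, with medians of 0.13 and -0.003.

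Among the large-subunit genes, those called with the largest falls between day 1 and day 20 of the wild type were Rpl3, Rpl39, Rpl22, Rpl18, Rpl41 and Rpl27a. Rpl39, a small protein that lines the exit tunnel of the nascent peptide, was at 7.94, 7.71 and 7.73 at day 1 and 7.27, 7.33 and 7.24 at day 20. Rpl22, an RNA-binding protein of the subunit surface, was at 12.55, 12.35 and 12.54 and then 11.93, 11.96 and 12.02. Rpl18, mutated in some families with Diamond-Blackfan anaemia, was at 12.61, 12.43 and 12.72 and then 12.06, 12.12 and 12.04. In each of these genes the 3 arrays of day 1 lay above the 3 of day 20, which the rule for naming falls required.

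These differences were -0.52 ± 0.12 for Rpl39, -0.51 ± 0.09 for Rpl22 and -0.51 ± 0.10 for Rpl18 (limma adjusted p = 0.00276, 0.000183 and 0.000438). Rpl41, among the shortest of ribosomal proteins, differed by -0.41 ± 0.07 and Rpl27a by -0.40 ± 0.08. Also called lower were Rpl6, Rpl23, Rpl23a, Rpl27, Rpl34 and Rpl35, so that 12 of the 34 large-subunit genes were called lower in this interval.

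Among the small-subunit genes the largest called falls of the first interval were those of Rps28 and Rps23. Rps28, which lies along the exit path of the messenger RNA, was at 12.57, 12.55 and 12.38 at day 1 and at 11.86, 11.92 and 11.90 at day 20. Rps23, which helps keep decoding accurate, was at 13.22, 13.17 and 13.02 and then 12.68, 12.69 and 12.57. Neither gene had overlapping arrays between these ages, which the rule for naming falls required. The differences were -0.61 ± 0.08 and -0.49 ± 0.09 (limma adjusted p = 6.77e-06 and 0.000387). Rps9, Rps16, Rps29 and Rpsa were also called lower.

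**Figure D2:**
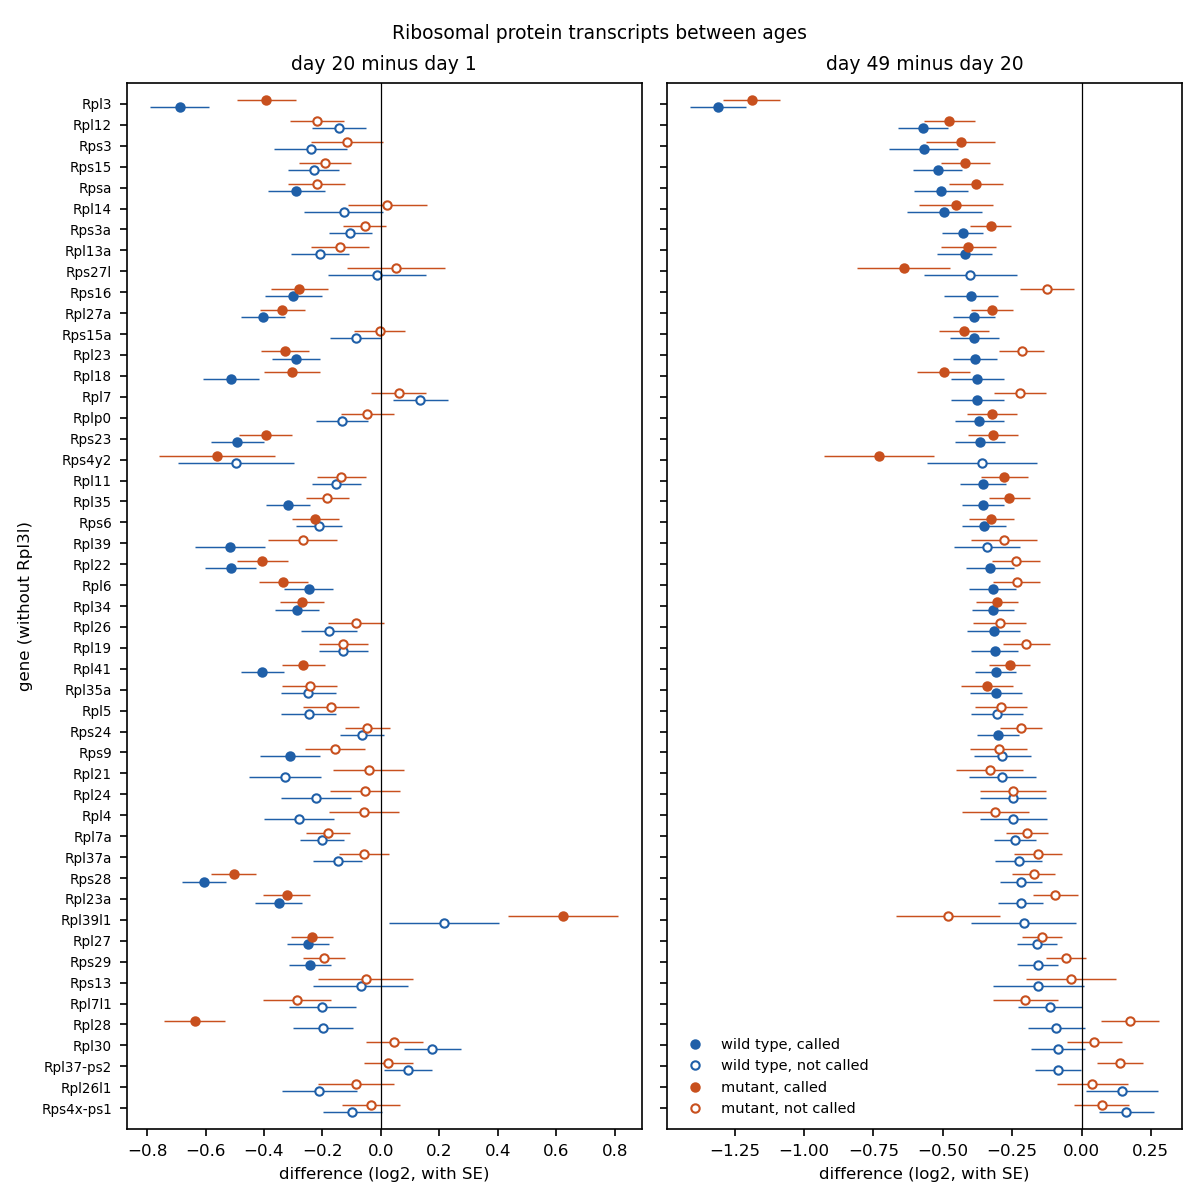
Difference between ages (log2, horizontal axis) of each ribosomal protein gene except Rpl3l (vertical axis), day 20 minus day 1 on the left and day 49 minus day 20 on the right. Blue points are wild type and orange points mutant, filled where called at an adjusted p below 0.05, with bars of 1 SE. Most points lie left of 0 in both panels, and Rpl3 in the right panel stands apart at -1.31 and -1.19.

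Between day 20 and day 49 of the wild type, Rpl12, Rps3, Rps15, Rpsa, Rpl14, Rps3a and Rpl13a followed Rpl3 as the largest called falls. Rpl12, at the base of the stalk that recruits elongation factors, was at 12.44, 12.38 and 12.39 at day 20 and at 11.76, 11.99 and 11.75 at day 49. Rps3, at the entry of the messenger RNA channel, was at 12.29, 12.19 and 12.21 and then 11.60, 11.86 and 11.52. Rps15, near the decoding site, was at 12.38, 12.36 and 12.36 and then 11.91, 11.97 and 11.66. The day 20 arrays of all of these lay above the day 49 arrays, which the rule for naming falls required. Wild-type array 2 of day 49 was the highest of its group in each of Rpl12, Rps3 and Rps15.

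The differences were -0.57 ± 0.09 for Rpl12, -0.57 ± 0.12 for Rps3 and -0.52 ± 0.09 for Rps15 (limma adjusted p = 0.000684, 0.00659 and 0.00111). Rpsa, also known as the laminin receptor precursor, differed by -0.50 ± 0.10, and Rpl14 by -0.49 ± 0.13. Rps3a differed by -0.43 ± 0.07, and Rpl13a, known also for silencing of inflammatory messenger RNAs, by -0.42 ± 0.10. A further pair of Rpsa probe sets, at mean levels of 11.59 and 11.05, showed -0.78 and -0.56. Among the remaining calls were Rps6, the target of the S6 kinases, Rplp0, the core of the stalk, and Rpl11, part of the complex with the smallest ribosomal RNA of the large subunit that can restrain Mdm2.

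Groups by place in the ribosome are read against the members' own share of lower calls in the wild type, 36% in the first interval and 54% in the second, and at these sizes nothing particular is read from them. Of 4 measured genes of the stalk and of the particle with that small RNA, 0 were called in the first interval, with 4 lower in sign, and 3 were called lower in the second (Rpl12, Rplp0 and Rpl11). Of 6 genes at the exit of the peptide tunnel, 3 were called lower in each interval, Rpl39, Rpl23a and Rpl35 in the first and Rpl35, Rpl26 and Rpl19 in the second. Of 4 genes along the messenger RNA channel, 2 and 3 were called lower. Of 10 genes whose loss causes Diamond-Blackfan anaemia, an inherited failure of red cell production, 5 and 6 were called lower, with medians of -0.25 and -0.31.

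The members without a call in either interval of the wild type numbered 16. They held all 7 dim genes. The others were Rpl4, Rpl5, Rpl7a, Rpl21, Rpl24 and Rpl37a, bright large-subunit genes whose differences in both intervals were below 0, and Rpl7l1, Rps27l and Rps4y2. Rpl21, for example, was at 11.96, 11.41 and 11.92 at day 1 and 11.50, 11.35 and 11.45 at day 20, with wild-type array 2 of day 1 as low as the later arrays. That array was the lowest of its group in Rpl4, Rpl24 and Rpl14 too, and was among those with the uneven Gapdh ends.

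With the 3 arrays of uneven ends left out, 29 members were called between day 1 and day 20 of the wild type in place of 19, and 10 in place of 18 in the mutant, which then had a single day 1 array whose spread was taken from the other groups. Between day 20 and day 49 of the wild type, 28 members were called in either direction. That count was 14 without wild-type array 1 of day 49, and 15 without array 3 of day 49 or without array 1 of day 20.

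The list of paralogs within the family also held general forms, among them Rpl3, Rpl7, Rpl22, Rpl26 and Rpl39. Of 11 measured genes, 9 were lower in sign in the first interval of the wild type and 8 in the second, with medians of -0.20 and -0.33. Rpl3l was the 1 called higher in each, 3 were called lower in the first (Rpl3, Rpl39 and Rpl22) and 4 in the second (Rpl3, Rpl7, Rpl22 and Rpl26), against 15.6% and 6.05% of all probe sets. All of these lower calls fell on general forms. The probe sets used for Rpl7l1, Rpl26l1, Rps27l and Rps4y2 had no call in either interval of the wild type. Rps27l, a paralog of Rps27 induced by p53, was at 6.33, 6.30 and 6.13 at day 20 and 5.89, 6.10 and 5.58 at day 49 of the wild type, with a difference of -0.40 ± 0.17 that was not called. Rpl7l1, a nucleolar relative of Rpl7, had differences of -0.20 ± 0.11 and -0.11 ± 0.12, also without a call. A slightly dimmer Rpl7l1 probe set (mean level 8.21) showed -0.66 and -0.23. Rps4y2 had wild-type means of 7.80, 7.31 and 6.95 at days 1, 20 and 49. The calls alone therefore do not set these paralogs apart from the general forms. Rpl39l1 and Rpl26l1, relatives of Rpl39 and Rpl26, were dim on all arrays, at 3.77 to 4.99 and 5.26 to 5.94.

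In the mutant hearts, too, most members were lower at the later age. Between day 1 and day 20 of the mutant, 16 members (32%) were called lower against 15.9% of all probe sets, and 2 were called higher, Rpl3l and the dim Rpl39l1, against 12.4%. Between day 20 and day 49, 21 members (42%) were called lower against 6.23%, and Rpl3l was called higher against 3.92%. The medians were -0.18 and -0.28. In the first interval 13 genes were called lower in both genotypes, which was 72.2% of the wild type's calls and 81.2% of the mutant's, and in the second interval 19 genes, 70.4% and 90.5%.

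Among the mutant's largest called falls between day 1 and day 20 were Rps28 at -0.50 ± 0.08, Rpl22 at -0.41 ± 0.09 and Rps23 at -0.39 ± 0.09 (limma adjusted p = 5.28e-05, 0.00153 and 0.00253). Rpl28 at -0.64 ± 0.10 and Rps4y2 at -0.56 ± 0.20 were also called, the former from dim levels of 4.38 to 4.64 at day 1. Rpl39l1, the dim relative of Rpl39 that was called higher, was at 3.99, 3.86 and 3.77 at day 1 and at 4.04, 4.99 and 4.47 at day 20 (difference 0.62 ± 0.19, limma adjusted p = 0.0181), and its call was lost when single arrays were left out. After day 20 the mutant's falls were led, behind Rpl3, by Rps4y2 at -0.73 ± 0.20, Rps27l at -0.64 ± 0.17, Rpl18 at -0.50 ± 0.10 and Rpl12 at -0.48 ± 0.09 (limma adjusted p = 0.0254, 0.0205, 0.00277 and 0.0028). Rps4y2, a form of the small-subunit protein S4, was at 7.82, 8.39 and 8.14 in the mutant at day 1. It was at 7.16, 7.75 and 7.77 at day 20, and at 6.78, 6.84 and 6.87 at day 49. Its ages did not overlap, which the rule for naming falls required.

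The mutant's count for the second interval was lower with any compared array left out, as the wild type's was in most such fits. The mutant's count was 22 in either direction. Of the day 20 arrays, leaving out array 1 gave 16, array 2 gave 12 and array 3 gave 7. The count was 11 without array 1 or array 2 of day 49, and 13 without array 3 of day 49. It was 12 when only the 6 arrays compared were used, and the corresponding count of the first interval, 18, was then 10. Rpl3 and Rpl3l were called in all of these fits.

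No ribosomal protein transcript was called between mutant and wild type. The count was 0 of 50 at day 1, day 20 and day 49 and in the mean of the ages, where 0.11%, 0.139%, 0.606% and 1.39% of all probe sets were called by limma's moderated test. At an unadjusted p below 0.05 there were 0, 3, 7 and 7 members. Over all 31042 probe sets there were 2080, 1326, 2534 and 2988. The genotype difference changed with age for 0 of 50 members, against 0.0741% of all probe sets (limma's moderated F test). The smallest unadjusted p of that test was 0.0207, for Rpl3l, with an adjusted p of 0.998.

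The pair Rpl3l and Rpl3 held the largest genotype differences at day 49, and Rpl3l that of day 20. At day 20 the 3 mutant arrays of Rpl3l, at 9.01 to 9.77, lay under the 3 wild-type arrays, at 9.89 to 10.10, with a difference of -0.65 ± 0.17 (limma adjusted p = 0.348). At day 49 the arrays overlapped and the difference was -0.35 ± 0.17 (limma adjusted p = 0.64), and at day 1 it was 0.11 ± 0.17 (limma adjusted p = 0.999). None of these passed the test, and over the alternatives the adjusted p at day 20 lay between 0.0843 and 0.998.

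For the Rpl3 probe set used here the 3 mutant arrays lay above the 3 wild-type arrays at day 20 and at day 49. The differences were 0.25 ± 0.10 and 0.37 ± 0.10 (limma adjusted p = 1.00 and 0.149), and at day 1 the arrays overlapped with a difference of -0.05 ± 0.10. With a trended and robust prior the day 49 difference was called (limma adjusted p = 0.0421), and over all alternatives its adjusted p lay between 0.0421 and 0.453 and its size between 0.20 and 0.43, the lowest with the mean of both Rpl3 probe sets. The dimmer Rpl3 probe set showed genotype differences of -0.01 and 0.03 at these ages. The other large differences at day 49 were Rps16, at 12.12 to 12.33 in the mutant and 11.80 to 12.01 in the wild type, and Rpl35, at 12.03 to 12.12 and 11.78 to 11.95. They were 0.31 ± 0.10 and 0.20 ± 0.07 (limma adjusted p = 0.239 and 0.402).

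**Figure D3:**
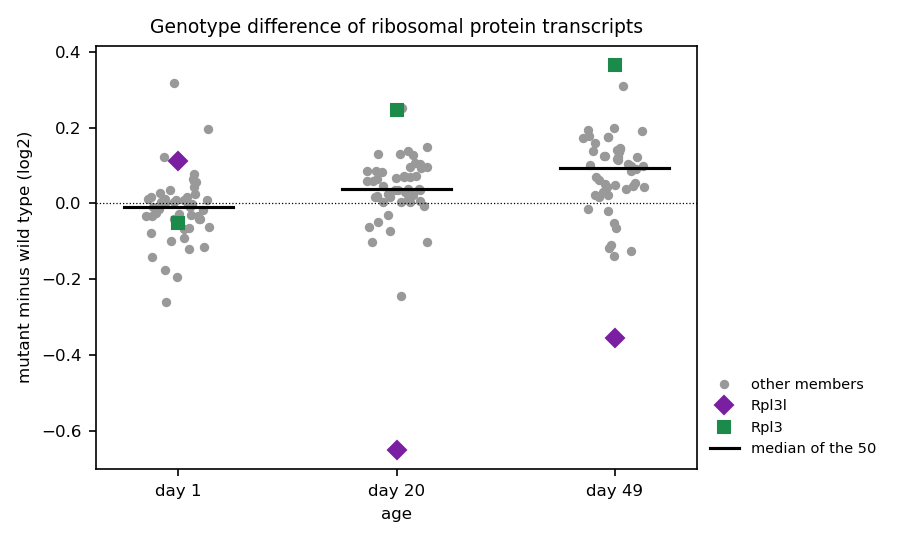
Mutant minus wild-type difference (log2, vertical axis) of each of the 50 ribosomal protein genes at each age (horizontal axis), with grey points spread sideways for legibility and a black line at the median. Rpl3l (diamond) lies at -0.65 at day 20 and -0.35 at day 49, and Rpl3 (square) at 0.25 and 0.37, while the medians are -0.01, 0.04 and 0.09. No point passed the test.

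In sign, 41 of 50 members were higher in the mutant at day 20 and 41 at day 49, against 22 at day 1, with medians of 0.04, 0.09 and -0.01. Over all probe sets the medians at day 20 and day 49 were -0.002 and 0.005. The members share their arrays, so these counts carry no test. By array, the median level of the members at day 49 was 11.73, 11.95 and 11.68 in the wild type and 11.95, 11.90 and 11.89 in the mutant, so that the groups overlapped through wild-type array 2. At the same age 14 of 16 leukocyte markers, 22 of 24 proliferation markers, 10 of 12 fibroblast markers and 8 of 11 erythroid markers were higher in sign in the mutant, with medians of 0.22, 0.23, 0.20 and 0.25. Of these, 1 was called, the fibroblast gene Postn, at 1.12 ± 0.23 (limma adjusted p = 0.0289). In the other marker lists of day 49, 6 of 19 cardiomyocyte and 3 of 10 endothelial markers were higher in sign. So were 4 of 9 smooth muscle and pericyte and 7 of 14 skeletal muscle markers. Called higher were 1 cardiomyocyte and 2 skeletal muscle markers. Over all 31042 probe sets, 16084 were higher in sign at day 49. At day 20, 23 of 24 proliferation markers were higher in sign, with a median of 0.33 and 0 called. The hybridization controls of day 49 were at 8.78 ± 0.73 on mutant and 9.67 ± 0.19 on wild-type arrays, and those of day 20 at 9.26 ± 0.15 and 9.38 ± 0.25. The part of these in the members' values was not tested.

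The genes that build and use ribosomes are read beside the shares of all probe sets called in the wild type, 15.6% lower and 12.6% higher in the first and 6.05% lower and 3.53% higher in the second. Of 65 measured biogenesis genes, 44 were called lower and 0 higher between day 1 and day 20 of the wild type, with a median of -0.43, and 1 was called lower between day 20 and day 49, with a median of -0.08. Nip7, which acts in pre-ribosomal RNA processing, fell by 1.15 in the first interval, and Nop58 and Gar1, proteins of the small nucleolar particles that modify ribosomal RNA, by 1.10 and 1.06. In the mutant 46 and 3 were called lower. Of 19 genes of RNA polymerase I, which transcribes ribosomal RNA, 8 were called lower in the first interval of the wild type, and 1 lower and 1 higher in the second, the latter counts near those shares. These held Taf1d at -1.17 ± 0.15 and -0.77 ± 0.15 in the 2 intervals, Polr1c at -0.80 ± 0.14 in the first interval, and Polr1a, called higher at 0.45 ± 0.10 in the second (limma adjusted p = 0.00766).

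The factors that use the ribosome had calls in both intervals. Of 14 elongation and termination genes, 10 were called lower and 1 higher in the first interval of the wild type and 5 lower in the second. Eef1a2, the elongation factor form of mature muscle and neurons, was the one called higher, at 0.70 ± 0.16, and Eef1a1, the general form, was called lower between day 20 and day 49 at -0.42 ± 0.09. Of 33 initiation genes, 18 were called lower and 3 higher and then 5 lower and 1 higher, the lower ones of the second interval including Eif3f, Eif3l and Eif3h of the eIF3 scaffold. Rack1, a scaffold protein of the small subunit outside the symbol rule, was called lower in each interval at -0.40 ± 0.08 and -0.51 ± 0.08 (limma adjusted p = 0.00101 and 0.000691).

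Of 29 genes that control translation and ribosome synthesis, 9 were called lower and 3 higher in the first interval of the wild type and 2 lower and 1 higher in the second. Apart from the lower calls of the first interval, these counts are near or under the shares of all probe sets. Myc and Mycn, activators of ribosome synthesis, differed by -1.26 ± 0.20 and -0.78 ± 0.24 in the first interval, and Eif4ebp1, a repressor of cap-dependent initiation, by -0.58 ± 0.10. Between genotypes, 4 genes of these lists of 65, 19, 14, 33 and 29 genes were called in at least 1 comparison. Of all probe sets, 0.11% at day 1, 0.139% at day 20, 0.606% at day 49 and 1.39% in the mean of the ages were called. The cause of these calls was not tested. Pdcd4, an inhibitor of initiation, was higher in the mutant by 0.89 ± 0.16 at day 1 and 0.91 ± 0.16 at day 20 (limma adjusted p = 0.0346 and 0.0192), and Eif4e2, a cap-binding protein, by 0.79 ± 0.09 at day 20 and 0.72 ± 0.09 at day 49 (limma adjusted p = 0.000273 and 0.000343). Polr1a, the largest subunit of RNA polymerase I, was lower by 0.58 at day 49 (limma difference -0.58 ± 0.10, adjusted p = 0.00641), and Ddx10, a helicase of ribosome assembly, was higher by 0.34 ± 0.06 in the mean of the ages (limma adjusted p = 0.0032).

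**Figure D4:**
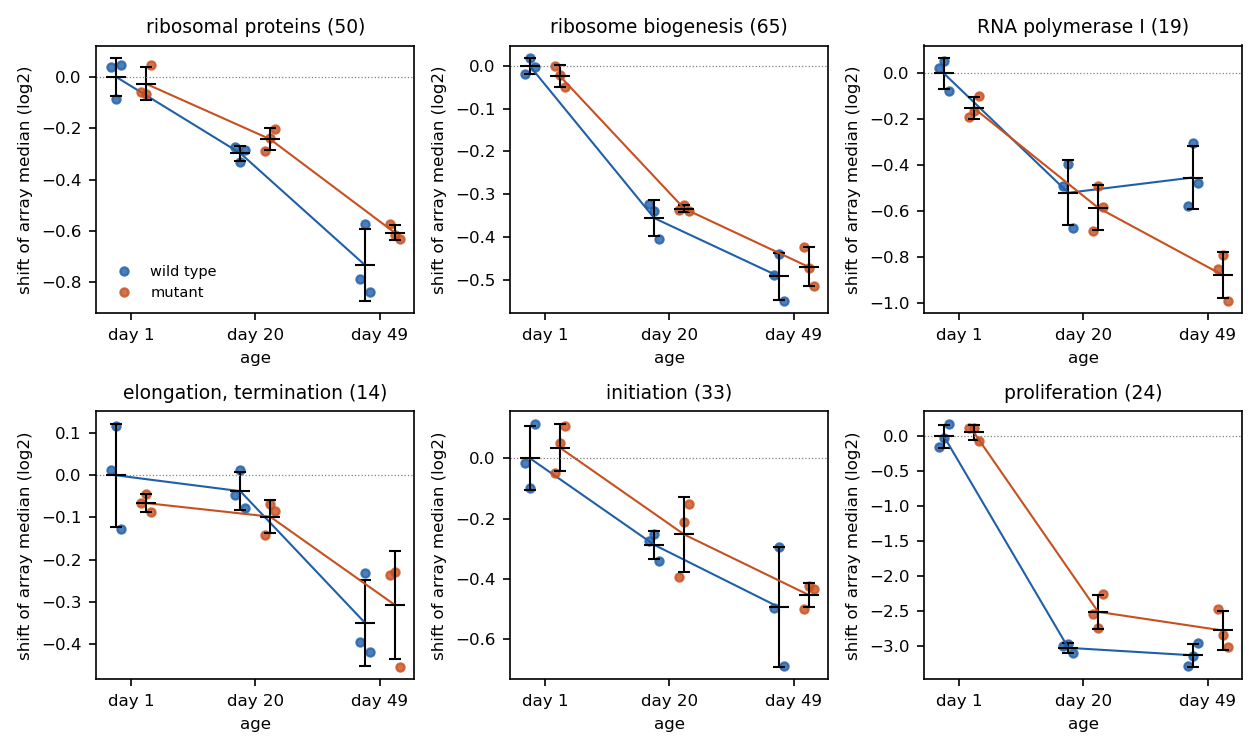
Median level of each gene list on each array (log2, vertical axis), shifted so that the wild-type day 1 mean is 0, against age. Blue points are wild-type and orange points mutant arrays (3 per group), with the mean ± SD in black; the number of genes is in each title and the vertical scales differ. The ribosomal proteins step down at both intervals, whereas the biogenesis and proliferation medians are mostly lower between day 1 and day 20.

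Some lists of cell type markers also differed between ages, part of them in both directions. Their counts are read beside the shares of all probe sets called in the wild type. These were 15.6% lower and 12.6% higher in the first interval and 6.05% lower and 3.53% higher in the second. The endothelial counts, and the erythroid counts of the first interval, are near or under those shares. Of 24 proliferation markers, 23 were called lower between day 1 and day 20 of the wild type, with a median of -2.77, and 1 between day 20 and day 49, with a median of 0.06. Their summed linear signal was 11139 to 12566 at day 1 and 2184 to 2305 at day 20. Of 16 leukocyte markers, 5 were called higher in the first interval and 9 in the second, and their summed signal in the wild type was 1459 to 1988 at day 1, 3621 to 3885 at day 20 and 5615 to 6841 at day 49. At day 1, 8 of these 16 markers had a wild-type group mean below 6. Of 19 cardiomyocyte markers 10 were called higher and 2 lower and then 1 higher and 2 lower, with summed signals of 160055 to 167985, 179036 to 189450 and 178722 to 178790 at the 3 ages. Of 12 fibroblast markers, 5 were called higher and 5 lower and then 3 lower. Of 10 endothelial markers 1 was called higher and then 1 lower, of 9 markers of smooth muscle and pericytes 4 higher and 4 lower and then 0, and of 11 erythroid markers 1 higher and 1 lower and then 2 lower. The part of these changes in the ribosomal protein values was not tested.

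Across the 18 arrays, which share the age groups, the levels of the 43 members with a mean of at least 6 had a median pairwise Pearson r of 0.88 over 903 pairs. With each group's mean removed it was 0.36. For Rpl3l the levels gave a negative r against all 42 others, with a median of -0.81, and with each group's mean removed the median was -0.05 and 24 of 42 were negative. These values describe the age structure and carry no test.

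The genes most like Rpl3l over the 18 arrays, among 14216 others, were Akr1c15 (r = 0.995), Pm20d2, Ak4, Me3 and Adhfe1. Akr1c15, of the aldo-keto reductase family, differed by 5.41 and 0.70 in the 2 intervals of the wild type, and Ak4, a mitochondrial adenylate kinase, by 3.24 and 0.35. The genes most opposite were Bex4 (r = -0.992), Tgm2, Myh10, Kif15 and Sfrp1. Myh10, a non-muscle myosin heavy chain, differed by -1.78 and -0.22, and Kif15, a mitotic kinesin, by -3.01 and -0.47.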

How the data were processed

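Levels are the deposited log2 values per probe set, made by the authors with robust multi-array analysis (RMA) per the submitters' processing notes, version not given in the sources used here. They were used as deposited. Of 31099 probe sets, 57 controls were left out and 31042 tested. Gene symbols came from the platform annotation, which can be old, and probe sets with several symbols were left unnamed. Arrays have no depth; 3 animals per group limit the precision.

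limma 3.58.1 in R 4.3.3 fitted 1 model of 6 groups over 18 arrays (12 residual and 5.77 prior degrees of freedom). Contrasts were genotype at each age and over ages, both age intervals within each genotype, and an F test of the interaction, each two-sided with Benjamini-Hochberg adjustment over all tested probe sets and called below 0.05. Scripts were tested on simulated data. Errors of differences are SE, of group means SD.

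Members, gene lists and tests were chosen with earlier results of these data known. Named were Rpl3l, Rpl3, the paralogs, up to 8 called members without overlapping arrays per direction and comparison (3 largest values where fewer than 3 were called), up to 4 called genes per list, and the 5 genes most like and most opposite to Rpl3l. Rps6, Rplp0, Rpl11, Rpl4, Rpl21 and Rpl24 illustrate counts and were chosen after their values were seen. Alternatives were scaling, filters, priors, probe set choice, arrays used, RNA ends, the replicate number as a block, and leaving out each array.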

Additional observations from a re-analysis of the deposited data

How the results depend on the processing

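The age counts of the ribosomal protein genes depended on the fit more than their direction did. Between day 1 and day 20, 18 members were called in the mutant, and 10 both when only the arrays compared were used and without the 3 arrays of uneven Gapdh ends; in the wild type the latter gave 29 in place of 19. Between day 20 and day 49 the mutant's 22 became 12 with only the arrays compared, and 7 to 16 when an array was left out. The wild type's 28 then became 14 to 29. Between genotypes at day 49 a trended and robust prior gave 1 call, Rpl3, in place of 0. The cause of these shifts was not tested, though fewer arrays leave fewer degrees of freedom. In the fits that left out each array of an age interval, 12 members (wild type, each interval), 12 (mutant, first interval) and 7 (mutant, second interval) kept their call every time. Rpl3 and Rpl3l kept their age calls under each alternative, except that Rpl3l was not part of the one limited to plain probe sets, and no called value changed sign. Uncalled values near 0 did at day 1, where the genotype difference ranged from -0.14 to 0.22 for Rpl3l, from -0.17 to 0.09 for Rpl3 and from -0.05 to 0.02 for the members' median. The members' median difference of the mutant between day 1 and day 20 was -0.26 at its lowest, against -0.18. Deviations of same-numbered animals had correlations of -0.19 to 0.22, above 0.1 in 4 of 9 pairs. Pairing by the replicate number was not assumed, though with 3 animals per group these values cannot exclude it. With the replicate number as a block the counts were 20 and 28 in the wild type and 17 and 21 in the mutant, with 0 between genotypes. Signal near background limits the 7 dim members and the day 1 level of Rpl3l, and 3 animals per group limit what could be called between genotypes.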

Other observations

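The control probe set for 5S ribosomal RNA stood at 7.02 ± 0.22 (SD, n = 3), 6.56 ± 0.37 and 6.96 ± 0.16 at days 1, 20 and 49 of the wild type and at 7.03 ± 0.23, 6.61 ± 0.19 and 7.25 ± 0.23 in the mutant. The 36 probe sets that list a ribosomal protein gene with other symbols had mean levels of 3.67 to 12.97, with a median of 12.40.

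Rpl3, the member with the largest fall after day 20, was most like Postn (r = 0.983 over 18 arrays), Cd99, Gprasp2, Zpr1 and Ccni, and most opposite to RT1-Db1 (r = -0.978), RT1-CE5, Slc25a29, Scly and Abcb1a. Postn, a matrix protein of young fibroblasts, differed by -1.11 and -2.95 in the wild type's intervals, and RT1-Db1, a class II histocompatibility gene, by 1.01 and 1.51. These correlations rest on the shared age groups and carry no test.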
